A study of Mus musculus with 6 samples.

Results

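The genes described here are 8 receptors of the tumour necrosis factor (TNF) receptor superfamily that B cells and their neighbours carry, Tnfrsf13b, Tnfrsf13c, Tnfrsf17, Cd40, Tnfrsf14, Cd27, Fas and Tnfrsf1b, and the signalling adaptors Traf1 and Traf3. They were found by symbol in the array's annotation. Of the 10 listed genes 9 were measured, at 13 probe sets with a single gene symbol, among 18193 genes in all; Traf3 had no such probe set in the annotation table and was not analysed here. A gene measured by several probe sets is represented by the one with the highest mean over the 6 samples.

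The samples were B cells from mouse spleen, 1 Affymetrix array per mouse. Every mouse of both groups was transgenic for Bcl2 driven by the Eµ enhancer, an immunoglobulin heavy chain element that drives expression in B cells, so neither group shows B cells without extra Bcl2. In 3 mice both alleles of Crebbp, which encodes the histone acetyltransferase CBP, were flanked by recombination sites but present (CBPF/F x EµBcl2, called Crebbp-floxed), and in 3 mice both were deleted (CBPΔ/Δ x EµBcl2, called Crebbp-deleted). The labels used here do not give the recombinase that made the deletion, the strain, or the age of the mice. Spleen cells were frozen alive and thawed, and B cells were obtained untouched by depleting CD43-bearing cells on beads, a step that also removes plasma cells and B-1 cells where it works.

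BAFF and APRIL are ligands of the TNF family that keep B cells alive. BAFF receptor (Tnfrsf13c) carries the survival signal of mature B cells, TACI (Tnfrsf13b) binds both ligands and serves T-independent antibody responses, and BCMA (Tnfrsf17) sustains plasma cells. CD40 receives T cell help. These receptors hold or release TRAF adaptors, through which they activate the canonical and the non-canonical NF-kB pathways, whereas Fas recruits FADD and caspase-8 and can kill the cell.

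Each level below is a log2 intensity, and each difference is the mean of the deleted group minus that of the floxed group, in log2 units. Differences were tested with limma across all genes, with Benjamini-Hochberg adjustment and a threshold of 0.05. Intensities of different probe sets do not order genes by RNA level, so each level is read only across samples; a value under the median of all probe set means is called dim. The 6 arrays had median log2 intensities from 4.27 to 4.30. B cell markers were bright on all arrays (Ms4a1, which encodes CD20, from 12.43 to 12.80, and Cd79b, the Igβ chain of the B cell receptor, from 12.18 to 12.45). Crebbp at its representative probe set, 1435224_at, stood at 10.04, 9.87 and 9.95 in the floxed samples and 9.59, 9.41 and 9.35 in the deleted ones, with no overlap (−0.50). Its other probe sets had no overlap either, with −0.53 (1434633_at), −0.79 (1436983_at) and −0.97 (1459804_at). In the fit on all single-symbol probe sets 1436983_at passed (limma adjusted p = 0.027). The others did not: 1459804_at (limma adjusted p = 0.065), 1434633_at (0.069) and the representative (0.089). The labels do not say which probes lie in the deleted part of the gene. From Xist and Y-linked genes, floxed sample 1 and deleted samples 1 and 3 were read as male and the other 3 as female, so sex was unequal between the groups.

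No receptor and no adaptor among the 9 passed the test, where 0.781% of all genes did. The difference farthest below 0 was that of Traf1, at −0.77, and the one farthest above was that of Tnfrsf17, at 1.14. Both had an unadjusted p under 0.05, that is 2 of 9 genes against 14.8% of all genes, and both had groups that did not overlap, again 2 of 9 against 21.2% of all genes. The other 7 genes had overlapping groups. Over the 9 genes 4 differences were positive and 5 negative, with a median of −0.12 beside 0.01 over all genes. In a sample of spleen cells, fewer cells of a type and less RNA per cell cannot be told apart.

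**Figure D1:**
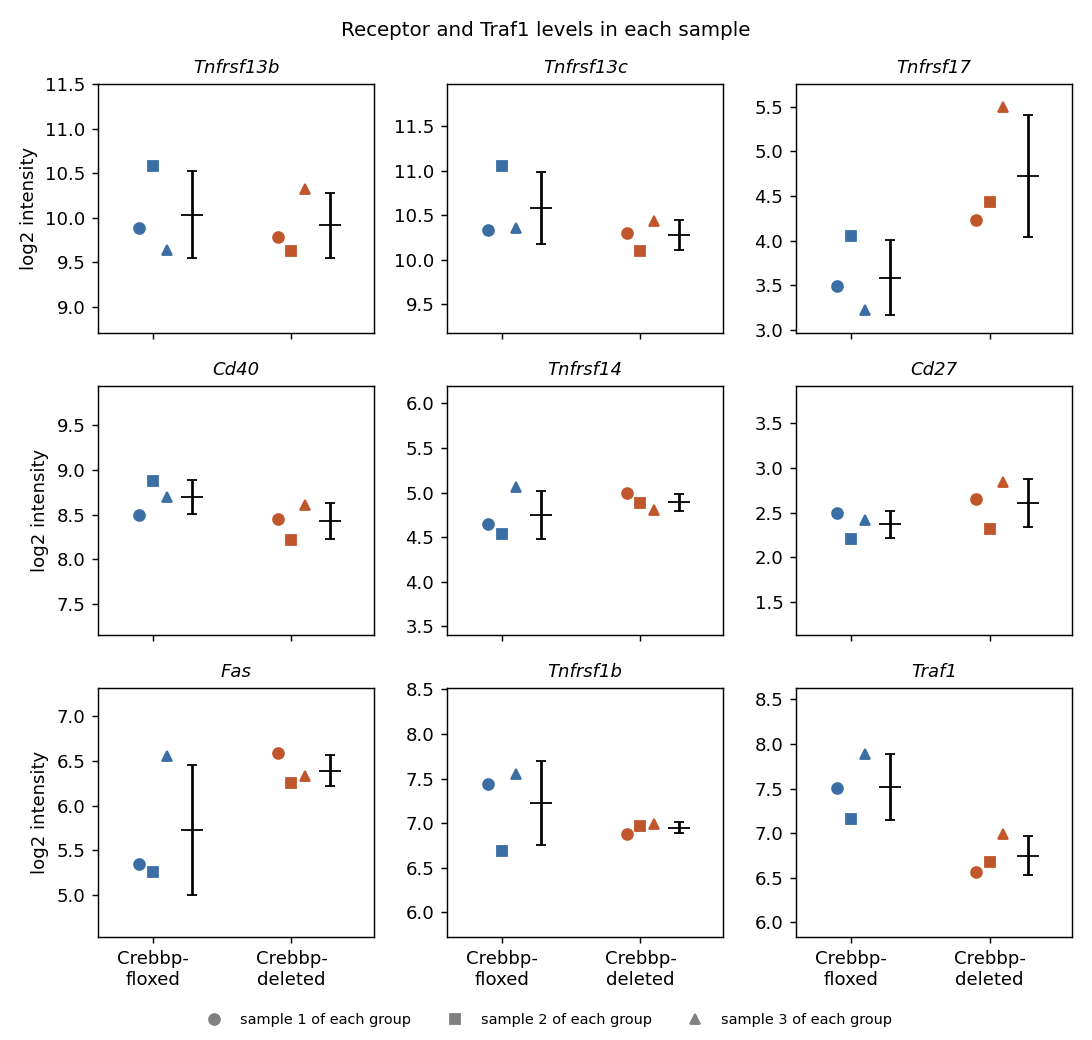
Log2 intensity (vertical axis, spanning the same number of log2 units in each panel) of each measured gene in the 3 Crebbp-floxed and 3 Crebbp-deleted samples, with the group mean and SD beside the points. The groups separate in Tnfrsf17 and Traf1, and a single floxed sample stands among the deleted ones in Fas.

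The stretches upstream of Traf1, whose groups did not overlap, and of Fas, whose call changed with 1 sample, are shown because the results turn on these genes. They come from RefSeq on GRCm38.p6, from windows of 250 bases before each gene's start that were shortened to end outside every annotated transcript: chr2:34961813-34962022 on the minus strand (210 bases) and chr19:34290409-34290646 on the plus strand (238 bases). Capitals mark matches on either strand to the motifs named in the next paragraph. The window of Tnfrsf17 lies inside the annotated gene and is not shown.
Traf1: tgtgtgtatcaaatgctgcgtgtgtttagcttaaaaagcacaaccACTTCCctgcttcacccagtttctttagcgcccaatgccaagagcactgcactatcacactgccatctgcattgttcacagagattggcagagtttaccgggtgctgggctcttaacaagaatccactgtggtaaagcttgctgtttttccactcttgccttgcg
Fas: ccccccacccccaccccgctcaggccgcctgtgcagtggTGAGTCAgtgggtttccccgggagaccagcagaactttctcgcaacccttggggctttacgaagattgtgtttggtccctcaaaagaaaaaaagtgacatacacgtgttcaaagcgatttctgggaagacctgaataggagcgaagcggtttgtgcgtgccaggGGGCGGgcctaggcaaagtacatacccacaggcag

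Full windows of 250 bases, before shortening, were found for 9 of the 10 listed genes, all but Cd40. Motifs were searched in these full windows, so some matches, those of Tnfrsf17 among them, lie inside the annotated gene. The cAMP response element TGACGTCA, bound by CREB, the factor for which CBP was named, was in none of the 9 windows and in 1.55% of all 32851 promoter windows. Its half-site TGACG was also in none of the 9, against 17.8% of all windows. The NF-kB consensus was matched in the Traf3 window alone (3.9% of all windows). The AP-1 motif TGANTCA was matched in the Fas window (6.75% of all), the TATA box TATAAA in the Tnfrsf17 window (12.4%), and the ETS motif GGAAGT in the windows of Traf1, Tnfrsf14 and Tnfrsf13b (19.7%). The GC box GGGCGG was matched in the windows of Tnfrsf1b, Traf3, Tnfrsf13c, Tnfrsf17 and Fas (32.7%). The half-site lies within the full element; the other matches shown in capitals do not overlap. A match is a string of letters and not a measured binding site.

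BAFF receptor, Tnfrsf13c, showed no difference past the test. Its log2 intensity was 10.33, 11.05 and 10.36 in floxed samples 1, 2 and 3 and 10.30, 10.10 and 10.44 in deleted samples 1, 2 and 3. Floxed sample 2 stood apart above the other 5 samples, which lay within 10.10 to 10.44, and the groups overlapped. The difference was −0.31 ± 0.20 (SE; 95% interval −0.78 to 0.17, limma adjusted p = 0.544). Without floxed sample 2 it was −0.07.

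TACI, Tnfrsf13b, was measured at 9.88, 10.58 and 9.64 in the floxed samples and at 9.79, 9.63 and 10.33 in the deleted ones. Floxed sample 2 was again the highest, deleted sample 3 came next, and the groups overlapped. The difference was −0.12 ± 0.27 (95% interval −0.75 to 0.51, limma adjusted p = 0.888). Its sign turned when floxed sample 2 (0.15) or deleted sample 2 (0.024) was left out.

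BCMA, Tnfrsf17, was dim in the floxed samples and in deleted sample 1. It was at 3.49, 4.05 and 3.22 in the floxed samples and 4.23, 4.43 and 5.50 in the deleted samples, with the lowest deleted sample close above the highest floxed one and deleted sample 3 well above the rest. On the linear scale these are intensities of 11.2, 16.5 and 9.31 against 18.8, 21.6 and 45.3. Their means are 12.4 and 28.6. The log2 difference was 1.14 ± 0.35 (95% interval 0.32 to 1.95), a 2.20-fold ratio of geometric means, which missed the threshold (limma adjusted p = 0.194). The floxed mean of 3.59 lies under the median of all probe set means, 4.29, and no detection call was used, so the fold is uncertain; with 16 added to every intensity the difference was 0.61.

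Plasma cells carry BCMA. Their marker list of 12 includes Tnfrsf17 itself. Of the other 11 all 11 had positive differences, as did 9707 of all 18193 genes, with a median of 0.93. In 9 of the 11 all deleted samples lay above all floxed samples (11.2% of all genes). Jchain, the joining chain of polymeric immunoglobulin, was the 1 that passed the test, at 11.23, 11.15 and 10.80 against 12.54, 12.61 and 12.99 (limma adjusted p = 0.011). That call was lost without floxed sample 1 (limma adjusted p = 0.055), without deleted sample 1 (0.052) and between males or females alone. It was kept in 13 of 17 alternatives, with limma adjusted p down to 0.0048. Mzb1, an endoplasmic reticulum protein of antibody-making cells, was at 11.37, 11.37 and 11.17 against 11.77, 11.77 and 12.47. The summed intensity of the 11 genes ran from 6889 to 7574 in the floxed and from 13131 to 21603 in the deleted samples, and 0 of the 11 had a mean under the median of probe sets. As with Tnfrsf17, deleted sample 3 was the highest: averaged over the 11 genes it was 1.83 above the mean of the floxed group, where deleted samples 1 and 2 were 0.77 and 0.91 above it. Without it the difference of Tnfrsf17 was 0.75 and the median of the list 0.54. Macrophage and neutrophil markers were also highest in deleted sample 3. The part of plasma cells in the Tnfrsf17 difference was not tested.

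Cd40, the receptor for T cell help, was read by 3 probe sets, none of which passed. At the representative, 1460415_a_at, the floxed samples had 8.50, 8.88 and 8.70 and the deleted samples 8.45, 8.21 and 8.61. The lowest 2 values were deleted samples and the highest 2 floxed ones, with overlap between. The difference was −0.27 ± 0.14 (95% interval −0.60 to 0.06, limma adjusted p = 0.430). The other probe sets had −0.19 (1439221_s_at) and −0.08 (1449473_s_at), each with overlapping groups.

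Cd40, Tnfrsf13b and Tnfrsf13c were each highest in floxed sample 2, a female. Between the female samples alone (2 floxed, 1 deleted) their differences were −0.58, −0.48 and −0.61, and between the male samples alone (1 floxed, 2 deleted) they were 0.031, 0.18 and 0.033. These differences rest on 1 floxed male and 1 deleted female. A genotype by sex term leaves 2 residual degrees of freedom, too few to say whether they differ between the sexes. The B cell marker list, 11 measured genes, was highest in floxed sample 2 as well, 0.11 above the floxed mean, and was 0.27 to 0.42 below that mean in the deleted samples. Of the 11 genes 1 passed the test, Cd79a, the Igα chain of the B cell receptor (−1.11, limma adjusted p = 0.0093); the call was lost without floxed sample 1 (0.059), without deleted sample 1 (0.057) and between males or females alone, over alternatives from 0.0023 to 0.840. The list's median was −0.18, with 9 of 11 differences negative (46.6% of all genes). In every deleted sample 5 of 11 genes were lower (10% of all genes). Those 5 were Cd79a, Fcer2a (−1.03), Cr2 (−0.75), Cd22 (−0.31) and Ms4a1 (−0.17), while Cd79b had −0.07 with overlapping groups. The summed intensity of the list was 28180 to 33274 in the floxed and 23073 to 24762 in the deleted samples. The part of B cell content in these receptors' values was not tested.

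Tnfrsf14 encodes HVEM, the partner of the inhibitory receptor BTLA and of LIGHT. It was at 4.65, 4.54 and 5.06 in the floxed and 4.99, 4.88 and 4.81 in the deleted samples; the deleted values all fell inside the floxed range. The difference was 0.14 ± 0.15 (95% interval −0.20 to 0.48, limma adjusted p = 0.709).

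Cd27, a costimulatory receptor of T cells and of memory and plasma cells, was near the bottom of the scale, at 2.49, 2.20 and 2.41 against 2.65, 2.32 and 2.85 (intensities from 4.59 to 7.20). At this signal no level can be assigned. The groups overlapped, and the difference was 0.24 ± 0.15 (95% interval −0.12 to 0.60, limma adjusted p = 0.522). T cell markers had a median difference of 0.06. Of these 11 genes 0 passed limma's test and 1 had an unadjusted p under 0.05 (14.8% of all genes). The summed intensity of the list was 322 to 454 in the floxed and 408 to 454 in the deleted samples, and 2 of the 11 were under the median of probe sets. The T cell marker at an unadjusted p under 0.05 was Cd28, at 4.02, 2.87 and 3.53 against 4.13, 5.09 and 5.65, without overlap (1.48, limma adjusted p = 0.164). Cd28 was dim in the floxed samples and in deleted sample 1. Of the 11 differences 7 were positive and 4 negative (46.6% of all genes were negative). The members named by their array signal were Zap70, a T cell receptor kinase, at 6.57 to 6.73 over the 6 samples, and Cd8a at 5.46 to 6.18.

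Tnfrsf1b, the TNF receptor 2, was at 7.44, 6.69 and 7.55 in the floxed samples and at 6.88, 6.97 and 6.996 in the deleted ones. The deleted samples lay close together, SD 0.059 against 0.47 in the floxed group, and floxed sample 2 was below all of them. The difference was −0.28 ± 0.21 (95% interval −0.78 to 0.23, limma adjusted p = 0.607), and its second probe set, 1448951_at, had −0.30 (limma adjusted p = 0.393). Without floxed sample 2 the difference was −0.54 (limma adjusted p = 0.078, where the alternatives ran from 0.078 to 0.985).

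Fas, the death receptor CD95, was the gene whose call rested on 1 sample. Floxed samples 1 and 2 stood at 5.35 and 5.26 and floxed sample 3 at 6.56, beside 6.59, 6.25 and 6.33 in the deleted samples. Floxed sample 3 thus lay inside the deleted range and the other floxed samples far below it. With all samples the difference was 0.67 ± 0.33 (95% interval −0.10 to 1.43, limma adjusted p = 0.395). Without floxed sample 3 it was 1.09 ± 0.13 and passed (limma adjusted p = 0.018), the single call made for any of the 9 genes under the alternatives tried, over which its adjusted p ran from 0.018 to 0.970.

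Germinal centre B cells carry high Fas. Of 7 of their markers other than Fas, 5 were highest in floxed sample 3, 1 in deleted sample 1 and 1 in deleted sample 3. Over these 7 the mean deviation from the floxed mean was 1.24 in floxed sample 3, −0.47 and −0.78 in floxed samples 1 and 2, and 0.53, 0.35 and 0.54 in the deleted samples. Bcl6, the transcription factor of germinal centre B cells, was at 8.08, 8.03 and 8.76 against 8.57, 8.26 and 8.25, and Mki67, a proliferation marker, at 6.31, 6.06 and 8.87 against 7.07, 7.24 and 7.85. All 7 differences were positive, as were those of 9707 of all 18193 genes, with a median of 0.41. Of these 7 genes 0 passed limma's test and 0 had an unadjusted p under 0.05 (14.8% of all genes). The summed intensity of the 7 was 470 to 1548 in the floxed and 814 to 917 in the deleted samples, none of the 7 being under the median of probe sets, and the median difference was 1.20 without floxed sample 3 and 0.061 without floxed sample 2. NK cell and dendritic cell markers were also highest in floxed sample 3. The part of germinal centre cells in the Fas values was not tested.

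Traf1 is an adaptor induced by NF-kB that binds TRAF2 and tunes signals from CD40 and TNF receptor 2. Its representative probe set, 1423602_at, had 7.50, 7.15 and 7.89 in the floxed and 6.57, 6.67 and 6.99 in the deleted samples. Every deleted sample was below every floxed one, with deleted sample 3 and floxed sample 2 closest. The difference was −0.77 ± 0.20 (95% interval −1.24 to −0.31), so that the geometric mean of the deleted samples was 58.6% of the floxed one, and it missed the threshold (limma adjusted p = 0.142). The second probe set, 1445452_at, at 6.83, 7.22 and 7.72 against 6.83, 6.77 and 7.19, had overlapping groups and −0.32 (limma adjusted p = 0.564), and the mean of both gave −0.55. The difference of the representative was −0.72 between males and −0.85 between females.

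**Figure D2:**
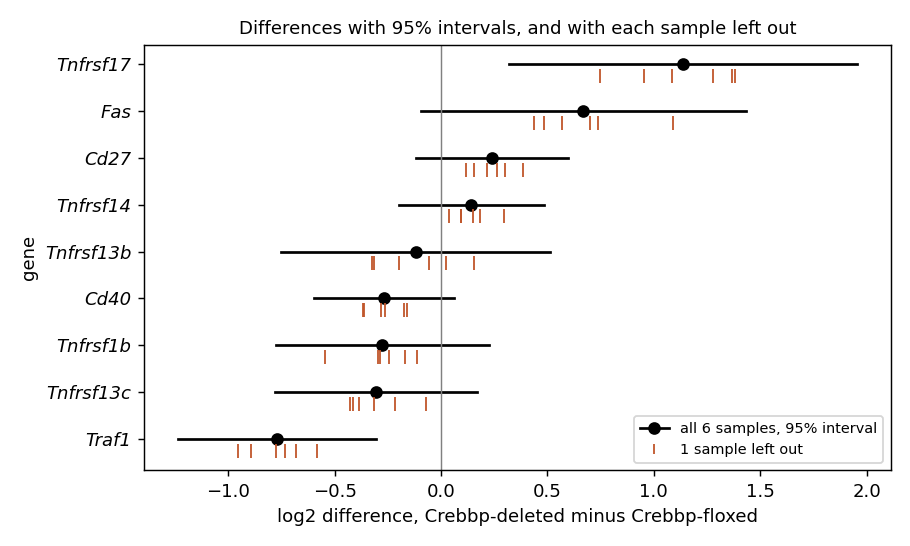
Log2 difference (horizontal axis) of each gene with its 95% interval from limma (black), and the same difference with each of the 6 samples left out in turn (ticks). The intervals of Tnfrsf17 and Traf1 lie off 0 before adjustment over all genes; the Fas tick at 1.09 is the value without floxed sample 3.

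The wider pathway was read from 5 lists. Of 76 genes 68 were measured. Past limma's test 0 were higher and 1 was lower in the deleted group, where 0.781% of all genes passed in either direction. Of the 68, 15 had an unadjusted p under 0.05 (14.8% of all genes), 12 lower and 3 higher in the deleted group. Groups did not overlap in 19 (21.2% of all genes), with 15 below (10% of all genes) and 4 above (11.2%). The median of the 68 differences was −0.08, beside 0.01 over all genes.

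Among the ligands and partners of these receptors 0 of 10 passed limma's test and 2 had an unadjusted p under 0.05 (14.8% of all genes). Btla, the inhibitory receptor that binds HVEM, was at 11.91, 11.67 and 11.47 in the floxed and 10.93, 11.30 and 10.80 in the deleted samples, without overlap (−0.67 ± 0.16, limma adjusted p = 0.122). Tnfsf13b, which encodes BAFF, was dim at 3.43, 3.75 and 3.28 against 4.003, 4.16 and 3.82, also without overlap (0.50 ± 0.15, limma adjusted p = 0.176). Its other 2 probe sets had overlapping groups, with 0.11 and 0.12. Tnfsf13 (APRIL) shares its probe set with other genes and was not analysed here. The difference was 0.07 for Cd40lg (CD40 ligand), −0.02 for Tnfsf14 (LIGHT), 0.20 for Cd70 (the ligand of CD27), 0.04 for Fasl and −0.04 for Tnf, with limma adjusted p from 0.472 to 0.962 and overlapping groups in each.

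Among 19 other receptors of the family 0 passed limma's test and 4 had an unadjusted p under 0.05 (14.8% of all genes). Of the 19 receptors 12 had positive and 7 negative differences (46.6% of all genes were negative). Those with the smallest p were Ngfr, the low-affinity neurotrophin receptor (−0.34, limma adjusted p = 0.209), and the decoy receptor gene Tnfrsf23 (0.29, limma adjusted p = 0.284). Tnfrsf23 was at 2.89 to 3.45 in all samples, so its level is not resolved.

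Of 16 adaptors, ubiquitin ligases and their regulators 0 passed limma's test and 3 had an unadjusted p under 0.05 (14.8% of all genes), all 3 lower. Of the 16 differences 12 were negative (46.6% of all genes), with a median of −0.07. Tnip1, a partner of the NF-kB inhibitor A20, had −0.26 (limma adjusted p = 0.219). Birc3 (cIAP2), which with TRAF2 and TRAF3 marks the kinase NIK for destruction, was at 11.40, 11.20 and 11.32 against 10.95, 11.19 and 10.53; the groups were barely apart (−0.42, limma adjusted p = 0.307). Its relative Birc2 had −0.09 and Traf2 −0.02, each with overlapping groups.

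Of 13 genes of the NF-kB arm 12 had negative differences (46.6% of all genes), 0 passed limma's test and 4 had an unadjusted p under 0.05 (14.8% of all genes). In 7 of the 13 every deleted sample was below every floxed one, where 10% of all genes were. Nfkb2, whose p100 product is cut in the non-canonical pathway, was at 8.51, 8.50 and 8.39 against 8.005, 8.16 and 7.92 (−0.44 ± 0.10, limma adjusted p = 0.099). Relb, its partner, was at 8.61, 8.16 and 8.59 against 7.87, 8.01 and 7.90 (−0.52 ± 0.14, limma adjusted p = 0.149). Map3k14, the kinase NIK that TRAF3 holds down, had −0.14 with overlapping groups (limma adjusted p = 0.672). The list's median was −0.21, and from −0.25 to −0.19 with each sample left out. Beside it, the medians of the B cell, plasma cell and macrophage marker lists were −0.18, 0.93 and 1.06, and their part in the NF-kB values was not tested.

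The 1 pathway gene past the test was in the list of the Fas death arm. Fcmr, the receptor for IgM, once described as an inhibitor of Fas-induced apoptosis and listed here for that reason, was at 12.24, 12.09 and 12.04 in the floxed samples and 11.39, 11.17 and 11.26 in the deleted ones. It fell by 0.85 ± 0.10 log2 units (limma adjusted p = 0.020), with a clear gap between the groups. The difference was −0.91 between males, −0.90 between females and −0.90 with sex as a term (limma adjusted p = 0.038). The call was lost without floxed sample 1, deleted sample 1, deleted sample 2 or deleted sample 3 (limma adjusted p = 0.088, 0.075, 0.065 and 0.064), and between males or females alone. Of 17 alternatives 11 kept the call, with limma adjusted p down to 0.0043. Over all 17 the differences ran from −0.91 to −0.79. Fadd, the adaptor that Fas recruits, was at 6.47, 6.43 and 6.29 against 5.78, 5.88 and 5.99, lower in every deleted sample (−0.52 ± 0.10), but missed the threshold (limma adjusted p = 0.070). The mean of the Fadd probe sets gave −0.36 (limma adjusted p = 0.126). Of the 10 genes of this list 8 had negative differences (46.6% of all genes), with a median of −0.16.

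**Figure D3:**
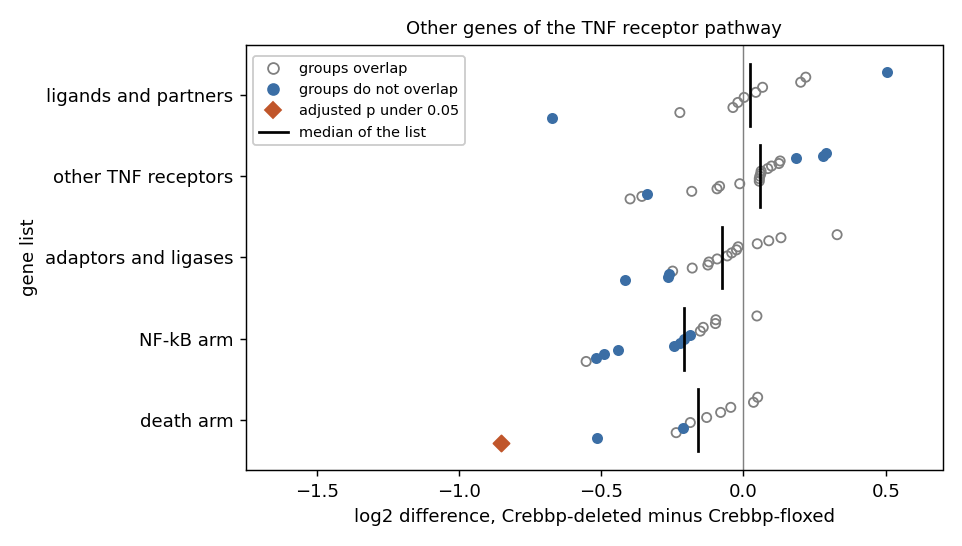
Log2 difference (horizontal axis) of each measured gene in the 5 pathway lists, with the list median as a bar. Filled points are genes whose groups do not overlap, 7 of 13 in the NF-kB arm, and the diamond is Fcmr, the 1 gene past the adjusted threshold.

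Within the groups the samples were ordered differently from gene to gene. Deleted sample 3 was the highest deleted sample in 7 of the 9 genes. Among the floxed samples, sample 2 was the highest in 4 genes and the lowest in 5, and sample 3 the highest in 4. These counts were not set beside shares of all genes, so they cannot be read as particular to the 9. The SD was larger in the floxed than in the deleted group in 6 of the 9 genes, as in 53.1% of all genes.

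**Figure D4:**
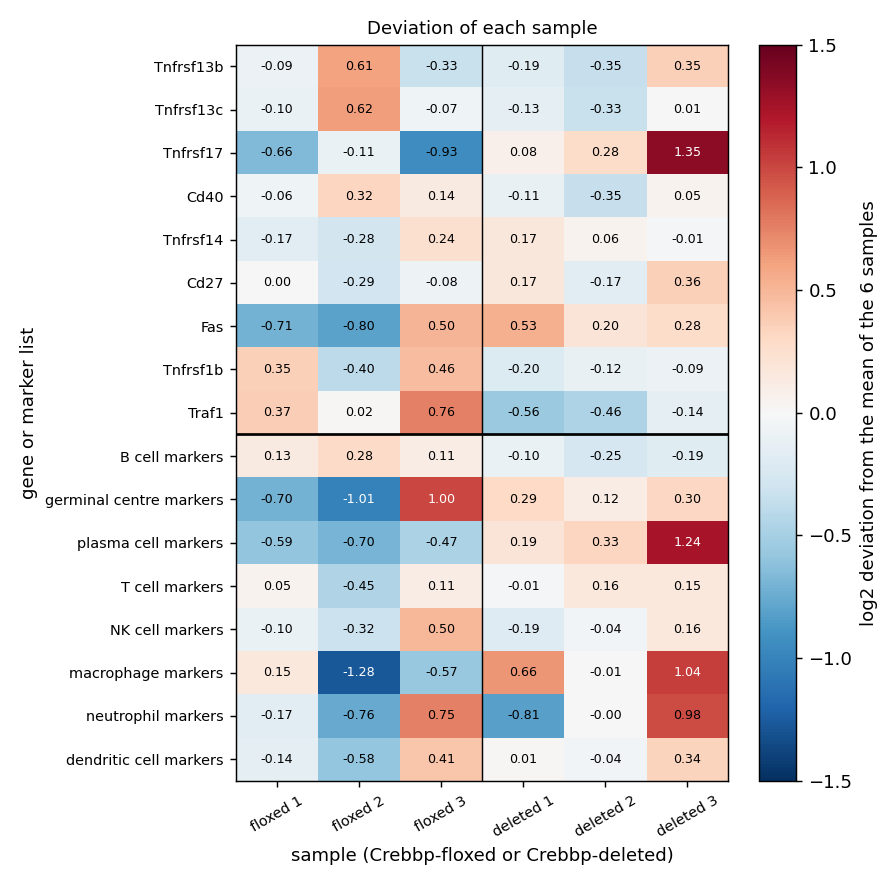
Deviation of each sample from the 6-sample mean, in log2 units, for the 9 genes (top) and for the mean of each marker list without these genes (bottom). Tnfrsf17 (1.35) and the plasma cell markers (1.24) peak in deleted sample 3, as do the macrophage (1.04) and neutrophil (0.98) markers. Fas (0.50) and the germinal centre markers (1.00) are both raised in floxed sample 3, the latter peaking there. The NK cell (0.50) and dendritic cell (0.41) markers also peak in floxed sample 3.

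Other marker lists also varied between samples. Of 13 macrophage markers 12 had positive differences, where 9707 of all 18193 genes did, and the median was 1.06. Of these 13 genes 0 passed limma's test and 7 had an unadjusted p under 0.05 (14.8% of all genes). Cd14 (0.008), Itgam (0.056) and Fcgr1 (−0.013) had differences near 0. In 4 of the 13 every deleted sample lay above every floxed one (11.2% of all genes): C1qa, C1qb and C1qc, the chains of complement C1q, and Cd5l, with differences of 1.97, 2.09, 2.11 and 1.59. The summed intensity of the 13 was 486 to 1615 in the floxed and 1480 to 3414 in the deleted samples, and 4 of the 13 were under the median of probe sets. Lyz2 (lysozyme) was at 8.72, 7.09 and 8.49 against 10.04, 8.38 and 8.92, and the adhesion molecule Vcam1 at 8.19, 5.61 and 5.88 against 8.18, 7.66 and 9.51. Tnfrsf1b and Tnfsf13b, which myeloid cells also express, were among the genes above; the part of macrophages in their values was not tested. The medians of the NK cell, neutrophil and dendritic cell lists were −0.06, 0.11 and 0.06. In them 0 of 8, 0 of 8 and 0 of 7 genes passed limma's test and 0, 0 and 1 had an unadjusted p under 0.05 (14.8% of all genes). The members named by their array signal were, over the 6 samples, Klrd1 at 4.68 to 6.75 and Prf1 at 5.05 to 5.46 for NK cells, S100a9 at 4.17 to 7.86 and S100a8 at 4.09 to 7.60 for neutrophils, and Bst2 at 7.48 to 7.74 and Flt3 at 6.10 to 7.36 for dendritic cells.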

How the data were processed

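Deposited values were intensities of each probe set in each sample, on a linear scale from 2.96 to 17022; the submitters' processing notes name RMA, with no version given in the sources used here. Intensities were log2-transformed and not normalized further. Of 45101 probe sets 34958 had 1 gene symbol in the platform annotation, 932 several and 9211 none; Entrez IDs of 34741 single-symbol probe sets, control probe sets left out, were matched to RefSeq symbols (GRCm38.p6). Each of 18193 genes was represented by its probe set with the highest mean, with no filter on dim genes.

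Groups were compared across all genes by a two-sided moderated test without covariates (lmFit, eBayes; limma 3.58.1, R 4.3.3). Probe sets of one gene were also tested in a fit on all single-symbol probe sets. It gave the adjusted p of the Crebbp probe sets and of every other probe set that is not a representative. The fit was tested on simulated data with independent noise and planted differences. That was a check of the code and does not measure whether the differences reported here could be detected. Per the design text each group is 3 mice. The number of arrays limits the precision. Named genes were the listed receptors and adaptors, fixed direct ligands, NIK and ligases, every called pathway gene and the 2 smallest p-values of each pathway list. In each marker list the 2 genes with the highest mean were named, besides Crebbp. Cd79a, Fcer2a, Cr2, Cd22, Cd28, C1qa, C1qb, C1qc, Cd5l, Cd14, Itgam and Fcgr1 were named after their values were seen. The genes and lists were chosen with earlier results of these data known. Alternatives covered normalization, offset, filter, probe set, limma settings, threshold, replicate block, sex and leaving out each sample; those for Fcmr, Btla, Tnfsf13b, Nfkb2, Fadd, Jchain, Cd79a and the list medians were chosen after seeing the data. Replicate numbers are shared between the groups, but same-numbered samples deviated with correlations of 0.033, 0.10 and 0.0059, so they were not treated as pairs. Plots were made in Python 3.11.15 (matplotlib 3.10.9).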

Additional observations from a re-analysis of the deposited data

How the results depend on the processing

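The 9 genes were refitted under 17 alternatives, 152 fits of a gene in all, since Cd27 was removed by the filter on dim genes. In 146 of them direction and side of the threshold were as reported, in 5 the sign turned, and in 1 a gene came to pass limma's test, Fas without floxed sample 3, so leaving out samples gave 0 to 1 passing genes. The sign turned within males for Tnfrsf13b (0.18), Tnfrsf13c (0.033) and Cd40 (0.031), and leaving out samples moved Tnfrsf13b between −0.33 and 0.15. Over all genes 142 passed; limma with trend and robust options gave 222, sex as a term 37, males alone 4, females alone 0 (992 at an unadjusted p under 0.05), a threshold of 0.1 gave 449, and leaving out samples 0 to 226 (0 without floxed sample 1, with 1990 at an unadjusted p under 0.05; 226 without floxed sample 3; 16, 45 and 62 without deleted samples 1, 2 and 3). With the replicate block 126 genes passed, 80 of them among the 142, and none of the 9 (Traf1 adjusted p = 0.071, the lowest of its alternatives, which ran up to 0.891). The male and female fits rest on 1 sample against 2, which takes the spread of the single sample to equal that of the rest. Low signal limits Cd27, Tnfrsf17 and Tnfsf13b.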
